A study of Mus musculus with 2 samples.

Results

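The genes described here are 10 feedback inhibitors and response genes of fibroblast growth factor (FGF) signalling: Spry1, Spry2, Spry4, Spred1, Spred2, Dusp6, Etv1, Etv4, Etv5 and Il17rd. Their transcripts are widely used as readouts of FGF signalling in embryos. A gene counted as measured where a probe set was annotated to its symbol alone, which held for 9 of the 10 and for 14860 genes in all. Both groups were wild-type embryos of the outbred CD1 stock at embryonic day 10.5, and no allele or treatment was involved. Limb buds of 8 litters were cut along the midline into an anterior part, on the thumb side, and a posterior part, on the little-finger side. RNA of each part was pooled and hybridised to 1 Affymetrix array, so the comparison of 2 arrays has no replicate and no test, and their number limits its precision. Whether forelimbs, hindlimbs or both were taken is not stated in the sources used here, and each part of the bud holds mesenchyme together with its covering ectoderm.

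FGFs are secreted by the apical ectodermal ridge, a strip of thickened ectoderm along the tip of the bud, and by the mesenchyme below it, and both sources keep the bud growing. Receptors pass the signal through Ras and Raf to the kinase ERK, which switches on Sprouty, Spred, Dusp6 and Il17rd, proteins that then damp the same pathway, and the ETS transcription factors Etv1, Etv4 and Etv5. In the mouse limb bud Etv4 and Etv5 are known to keep Shh, the posterior signal, out of anterior mesenchyme.

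Windows around annotated start sites were read for 8 of the 10 genes, without Etv4 and Spry4. Those of 3 genes are shown because they represent an inhibitor of the receptor pathway, a transcription factor and a phosphatase. They belong to the 4 genes at 1.2-fold or more in the deposited values below and were picked after the values were seen. Each is the RefSeq sequence of build GRCm38.p6 from 250 bases before to 50 bases after an annotated start, given 5′ to 3′ on the strand of the gene. Capitals mark CCGGAA or GGAAGT on either strand, 2 forms of the ETS binding core that overlap where CC precedes and GT follows the same core. Spry2 is on the minus strand at chr14:105896770-105897069, the Etv5 window belongs to 1 of its 2 annotated starts, on the minus strand at chr16:22438319-22438618, which holds 2 matches where the window of the other start holds 0, and Dusp6 is on the plus strand at chr10:99262981-99263280.
Spry2: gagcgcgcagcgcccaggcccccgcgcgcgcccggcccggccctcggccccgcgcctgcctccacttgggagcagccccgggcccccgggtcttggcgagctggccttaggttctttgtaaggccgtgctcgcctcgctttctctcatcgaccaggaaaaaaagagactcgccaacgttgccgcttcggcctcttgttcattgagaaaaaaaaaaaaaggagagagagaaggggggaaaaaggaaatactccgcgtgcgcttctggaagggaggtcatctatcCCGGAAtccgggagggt
Etv5: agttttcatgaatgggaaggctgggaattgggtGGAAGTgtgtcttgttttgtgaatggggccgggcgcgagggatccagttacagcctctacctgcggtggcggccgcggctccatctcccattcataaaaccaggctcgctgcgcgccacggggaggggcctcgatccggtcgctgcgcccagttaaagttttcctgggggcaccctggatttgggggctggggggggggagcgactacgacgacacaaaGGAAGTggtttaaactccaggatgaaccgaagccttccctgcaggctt
Dusp6: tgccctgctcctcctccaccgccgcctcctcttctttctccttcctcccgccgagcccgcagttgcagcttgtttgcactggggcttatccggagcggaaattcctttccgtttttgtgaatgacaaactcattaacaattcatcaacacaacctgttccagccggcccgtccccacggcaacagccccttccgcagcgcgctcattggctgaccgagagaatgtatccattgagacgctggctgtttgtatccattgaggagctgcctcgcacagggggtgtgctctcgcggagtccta

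CCGGAA was found in 1 of the 10 windows of these 8 genes, that of Spry2, and in 14.9% of all 32851 windows of the table. The shares over all windows left out no chromosome of the table, while 1 chromosome was left out for the genes described here. GGAAGT was found in 3 of the 10 windows, belonging to Etv1, Etv5 and Spred2, and in 23.8% of all windows. The AP-1 motif TGANTCA, read on both strands, was in none of the 10 windows and in 7.81% of all. The share of G and C was 62.7% in the window of Spry2, 60% in that of Etv5 and 57.3% in that of Dusp6, and over the 10 windows it ran from 44% in Etv1 to 74% at the other start of Etv5. These matches are letters in a window and were not measured as binding.

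All 9 measured genes had the higher value in anterior tissue, and 1 of them, Spry2, passed the 1.3-fold difference that the submitters used as their selection. The median gene of the 9 had a log2 value 0.24 higher in anterior than in posterior tissue, beside 0.04 for all genes and 0.07 for the 9017 genes called detected. A gene was called detected where its higher value lay above 5.06, the 95th percentile of 853 receptor and defensin genes that limb buds are not known to express. All 9 lay above this floor in both arrays. An anterior excess of 1.3-fold or more was found for 4.8% of all genes and 4.68% of detected genes, and a count of 1 among 9 is too small to be set apart from these shares. None of the 9 passed toward posterior tissue, as 3.77% of all genes and 1.85% of detected genes did. The anterior side held 57% of all genes and 66.8% of detected genes, which is the background for the 9 of 9; genes are not independent of each other, and no test was made. In bulk tissue fewer responding cells and less RNA per cell cannot be told apart.

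**Figure D1:**
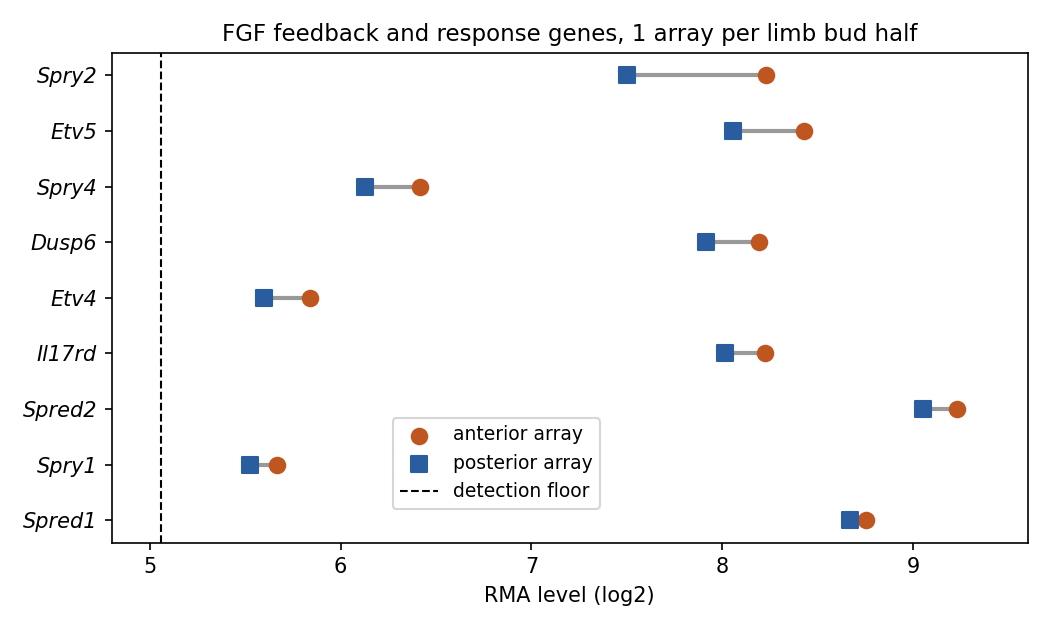
RMA level (log2, horizontal axis) of each of the 9 measured genes in the anterior array (circles) and the posterior array (squares), with the detection floor as a dashed line. Each grey bar joins the values of 1 gene, and every circle lies to the right of its square. Levels of different genes come from different probes and are not to be set against each other.

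The Sprouty genes encode inhibitors that act inside the cell between receptor and ERK. Spry2 (probe set 6827284) was measured at 8.23 in anterior and 7.50 in posterior tissue on the log2 scale. It was thus 1.66-fold higher in anterior tissue, with a log2 difference of 0.73. As a yardstick in place of a replicate error, the local spread is the robust standard deviation of the log2 differences of the 500 genes nearest in level, which mixes noise with true differences. For Spry2 this spread was 0.12, and 2% of those 500 genes lay past 1.3-fold on the anterior side. Among the 9017 detected genes its difference ranked 54th toward anterior tissue.

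Its paralogs differed less. Spry4 (probe set 6864813) had values of 6.41 and 6.13, a difference of 0.29 toward anterior tissue with a local spread of 0.16, or 1.22-fold. Spry1 (probe set 6896860) had values of 5.67 and 5.52, a difference of 0.14 that is smaller than its local spread of 0.19. The difference of Spry2 exceeded that of Spry4 by 0.44 and that of Spry1 by 0.59 on the log2 scale, which could not be tested with 1 array a group.

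The ETS factors Etv4 and Etv5 act at the end of the pathway, where they carry the signal to target genes. Etv5 (probe set 6844558) was measured at 8.43 in anterior and 8.06 in posterior tissue. Its difference of 0.37 toward anterior tissue, 1.29-fold, fell just short of 1.3-fold and was over 2 times its local spread of 0.11. Etv4 (probe set 6791519) had values of 5.84 and 5.60, a difference of 0.24 with a local spread of 0.17. Both factors therefore lay on the same side as the Sprouty genes. The only probe set of Etv1 (6794572) is annotated also to the pseudogene Gm5454 and was left out by the rule. It read 6.31 in anterior and 6.43 in posterior tissue, which is 0.12 in the opposite direction, and the array does not separate the gene from the pseudogene.

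Dusp6 encodes the cytoplasmic phosphatase that removes phosphate from ERK. Its probe set (6770160) read 8.19 in anterior and 7.91 in posterior tissue, a difference of 0.28 or 1.21-fold with a local spread of 0.11. Il17rd, also known as Sef, is a transmembrane inhibitor of FGF signalling and was measured by 2 probe sets. They gave differences of 0.26 and 0.16 toward anterior tissue, with values of 7.87 and 7.61 in probe set 6817694 and of 8.58 and 8.42 in probe set 6817696. Averaged, Il17rd lay 0.21 higher in anterior tissue with a local spread of 0.11. Dusp6 and Il17rd thus fell between Etv5 and the Spred genes.

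The Spred genes encode membrane-bound relatives of Sprouty that bring the Ras inactivator neurofibromin to Ras. Spred2 was read by 2 probe sets. Their differences were 0.18 (9.23 and 9.05, probe set 6779162) and 0.17 (9.23 and 9.06, probe set 6779185) toward anterior tissue, and the mean of both was 0.17 with a local spread of 0.09. Spred1 (probe set 6880322) had values of 8.75 and 8.67, a difference of 0.08 that is smaller than its local spread of 0.10. As a further guide to the error of such values, over the 95 detected genes with several probe sets, the differences of the probe sets of a gene ranged over a median of 0.17 on the log2 scale.

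Set in order, the differences toward anterior tissue ran from Spry2 through Etv5, Spry4, Dusp6, Etv4, Il17rd, Spred2 and Spry1 to Spred1. The gap from Spry2 to Etv5 exceeded the local spread of both, whereas neighbours from Etv5 to Spred1 were separated by less than their local spread. Of the 9 differences as deposited 7 exceeded 1 local spread and 3 exceeded 2, namely those of Spry2, Etv5 and Dusp6. The share of all genes past 1 or 2 local spreads was not counted, so these counts have no background beside them. At 1.2-fold the count in anterior tissue as deposited was 4 of 9, made up of Spry2, Etv5, Spry4 and Dusp6. Of all genes 10.9% and of detected genes 11.6% lay at that fold or more toward anterior tissue. The drift described next is part of these values.

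The arrays differed by a drift with level, which touched all of these values. At the levels of the 9 genes the trend (lowess) lay between 0.03 and 0.08 toward anterior tissue. With the trend removed, all 9 genes kept the higher value in anterior tissue, beside 50.1% of detected genes, and their median difference was 0.20. Spry2 was then 1.57-fold higher and again the only gene of the 9 past 1.3-fold, as 4.13% of all genes and 3.12% of detected genes were. Spred1 was left with a difference of 0.01, and Etv5 with 0.29 or 1.23-fold. Dusp6 kept a difference of 0.20, under 2 times its local spread of 0.11. Spry4 at 1.16-fold and Dusp6 at 1.15-fold fell under 1.2-fold. The share of all genes past 1.2-fold was not counted with the trend removed.

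**Figure D2:**
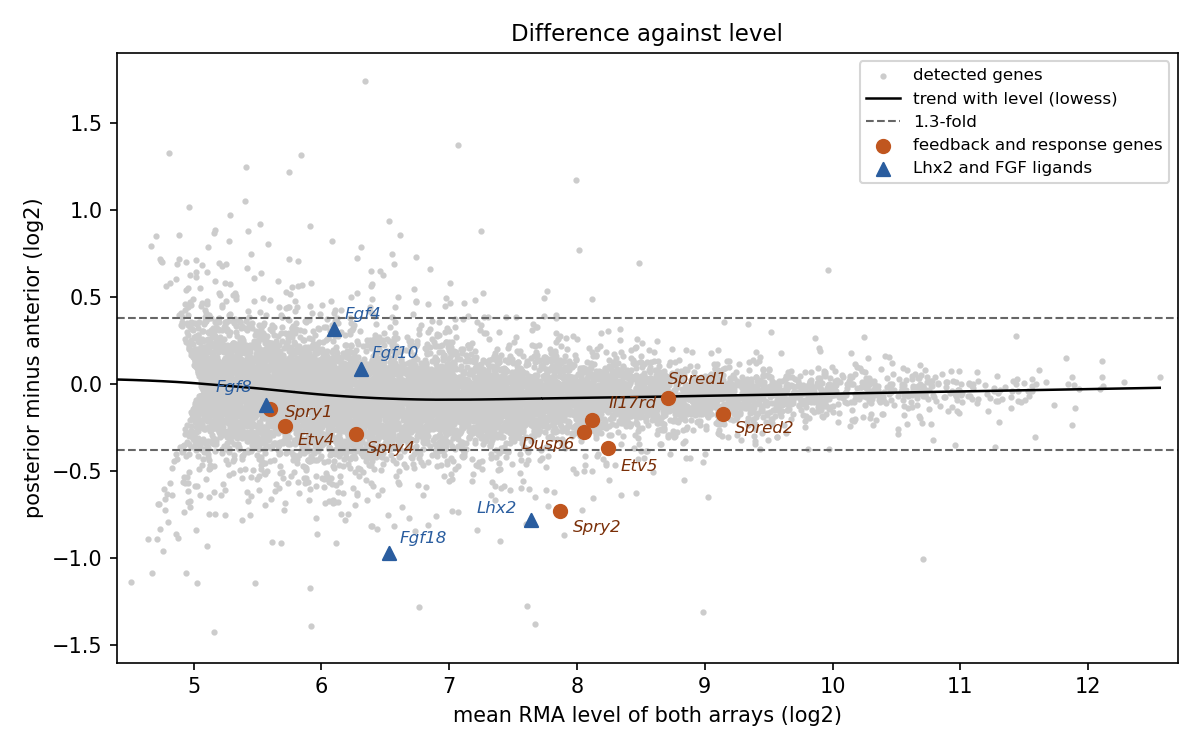
Posterior minus anterior difference (log2, vertical axis) against the mean level of both arrays (log2, horizontal axis) for the 9017 detected genes (grey), the 9 feedback and response genes (circles), and Lhx2 and 4 FGF ligands (triangles). Dashed lines mark 1.3-fold and the solid line the trend with level. All circles lie below 0, 8 of them within the dashed lines, and Spry2 lies beside Lhx2.

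**Figure D3:**
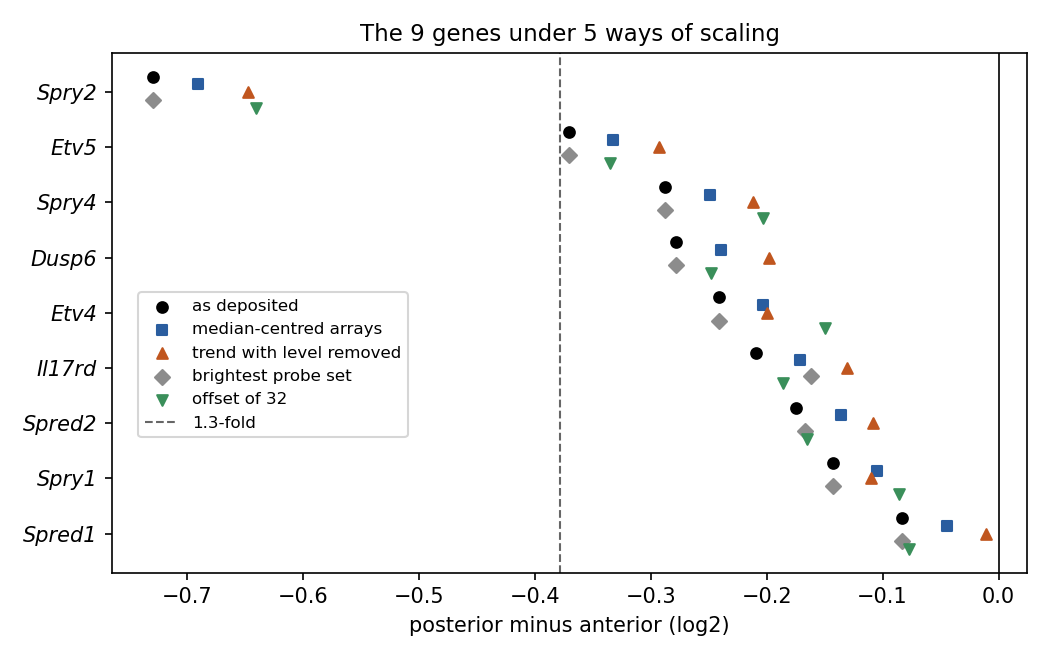
Posterior minus anterior difference (log2, horizontal axis) of the 9 genes under 5 ways of scaling or summarising the arrays, given by symbol. Each symbol is left of 0, and only those of Spry2 lie beyond the dashed line at 1.3-fold.

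With only 2 arrays a pattern consists of a pair of values. The detected genes nearest to Spry2 in this pair, of 8779 compared, were Lsm1, Cdon and Tmem50b, at distances of 0.11, 0.11 and 0.17 on the log2 scale. Lsm1, a protein of messenger RNA decay, read 8.13 and 7.51. Cdon, a Hedgehog co-receptor, read 8.34 and 7.47, and the membrane protein Tmem50b 8.06 and 7.45.

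Related genes outside the 10 did not share 1 direction. Of 8 measured, Lhx2 alone passed 1.3-fold. Lhx2, a LIM homeobox gene of distal limb mesenchyme known to depend on ridge FGFs, read 8.03 in anterior and 7.25 in posterior tissue and was 1.72-fold higher in anterior tissue, with a local spread of 0.13. The other 7 were the ERK phosphatases Dusp4, Dusp7 and Dusp9, Spred3, the receptor-like Fgfrl1, and Flrt2 and Flrt3, membrane proteins that bind FGF receptors. Of these, Flrt2 lay 0.27 toward anterior tissue and Flrt3 0.12 toward posterior tissue, while the remaining 5 differed by 0.05 or less. In particular Dusp4, Dusp7 and Dusp9, which like Dusp6 act on ERK, had differences of 0.00 and 0.04 toward posterior and 0.05 toward anterior tissue.

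The ligands that drive the pathway were divided. Of 16 measured FGF ligands 8 lay on the anterior side and 8 on the posterior side, but only 8 of the 16 were detected. Of those detected, Fgf8, Fgf13 and Fgf18 lay on the anterior side and Fgf4, Fgf9, Fgf10, Fgf22 and Fgf23 on the posterior side. The median of the 8 detected was 0.12 toward posterior tissue, beside 0.07 toward anterior tissue for all detected genes. The side of a ligand under the floor in both arrays carries little information. Fgf18, a ligand known from developing skeleton and muscle of the limb, was 1.96-fold higher in anterior tissue, with values of 7.01 and 6.04 and a local spread of 0.18. It ranked 19th of the detected genes toward anterior tissue once the trend was removed. Fgf13, an intracellular member of the family that does not act as a secreted ligand, lay under the floor in the posterior array, which leaves an anterior excess of at least 1.17-fold. Fgf23, a hormone of phosphate balance, was 1.39-fold higher in posterior tissue (5.23 and 5.71).

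None of the ridge ligands passed 1.3-fold. Fgf8, the main ridge ligand, read 5.62 in anterior and 5.50 in posterior tissue, a difference of 0.12 that is smaller than its local spread of 0.20. Fgf4, which the posterior ridge is known to express, read 5.94 and 6.25. It lay 0.31 toward posterior tissue, more than its local spread of 0.17, and just passed 1.3-fold there once the trend was removed. Fgf9 lay 0.15 toward posterior tissue with a local spread of 0.16, and Fgf17 was under the floor in both arrays. Fgf10, the mesenchymal ligand that signals to the ridge, differed by 0.09 toward posterior tissue with a local spread of 0.16. Among Fgf4, Fgf8 and Fgf9, the ridge ligands above the floor in both arrays, none lay toward anterior tissue by more than its local spread.

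The receptors gave no such difference either. Fgfr1, the main receptor of limb mesenchyme, read 7.53 in both arrays, and Fgfr2, the main receptor of limb ectoderm, read 6.87 and 6.90. Fgfr3 lay 0.24 toward posterior tissue, under the floor in anterior tissue by a narrow margin, and Fgfr4, Klb and Kl were not detected. All 6 lay on the posterior side, by 0.00 to 0.24, and none passed 1.3-fold.

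Between receptor and target genes, 1 of 14 measured genes of the ERK cascade passed 1.3-fold. Grb2, the adaptor that links receptors to Ras activation, was 1.41-fold higher in anterior tissue (5.65 and 5.16, local spread 0.19), and Nf1, which encodes neurofibromin, lay furthest toward posterior tissue, by 0.09. The list median was 0.05 toward anterior tissue and 0.00 once the trend was removed, when 7 of the 14 lay on the anterior side. Immediate early genes, which ERK and many other signals induce, had a median of 0.01 toward anterior tissue over 11 genes. This median turned to 0.02 toward posterior tissue with the trend removed. Of the 11 genes 5 were under the floor in both arrays, and the 6 detected had a deposited median of 0.01 toward posterior tissue. Of these Fosl1 lay 0.20 toward anterior and Ier2 0.08 toward posterior tissue. Egr2 was under the floor in both arrays, and only its measured values passed 1.3-fold, on the posterior side.

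**Figure D4:**
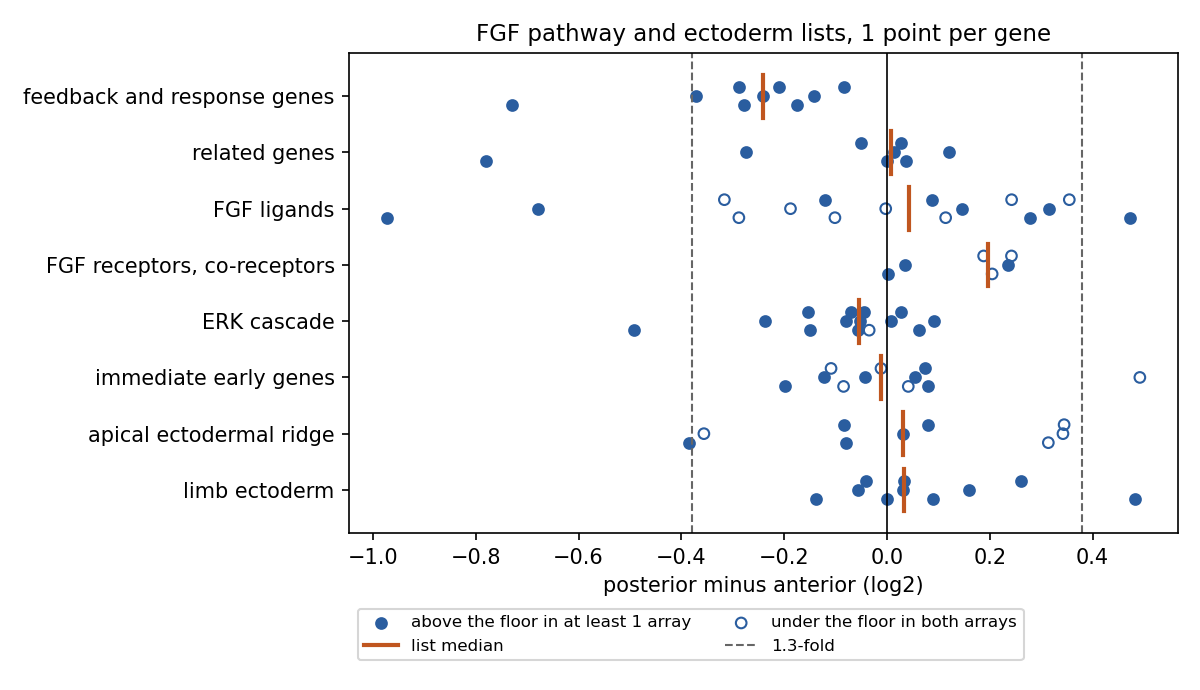
Posterior minus anterior difference (log2, horizontal axis) of each measured gene in 8 lists, 1 point per gene, filled where the gene lay above the floor in at least 1 array. Orange bars mark list medians, and all 9 feedback and response genes lie left of 0, while points of each other list except the receptors lie on both sides.

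Markers of the cell layers were set beside these values, and their sums add levels of different probes, so they do not measure the make-up of the samples. Ridge markers divided, with 4 of 9 on the anterior side, and their summed level on the linear scale was 470.3 in anterior and 453 in posterior tissue. Without Dlx5, which moved the sum most, it was 382 and 386, in the opposite order. Sp6, Sp8, Bmp2 and Cd44 of these were under the floor in both arrays. Dlx5 was 1.31-fold higher in anterior tissue, a call that was lost with median-centred arrays or with the trend removed, and Wnt3 lay 0.08 toward posterior tissue. Of 10 ectoderm markers 3 lay on the anterior side, with summed levels of 871 and 935. Krt5, a keratin of basal epidermis, was 1.40-fold higher in posterior tissue and Epcam lay 0.14 toward anterior tissue.

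Mesenchyme markers, some of them known to be patterned along this axis, differed in both directions. Of 10 markers 8 lay on the anterior side, beside 66.8% of detected genes, and their summed levels were 3879 in anterior and 3014 in posterior tissue, or 3080.1 and 2691 without Lhx9, with none of the 10 under the floor in both arrays. Prrx1 and Pdgfra, the markers spread most widely through limb mesenchyme, differed by 0.13 and 0.09 toward anterior tissue. The 5 markers past 1.3-fold toward anterior tissue were Lhx9, Msx1, Prrx2, Alx4 and Twist1, transcription factors with values from 2.47-fold for Lhx9 to 1.36-fold for Twist1, and Twist1 fell under 1.3-fold with the trend removed. Hand2, a posterior mesenchyme factor, was 1.56-fold higher in posterior tissue. With an offset of 32 added on the linear scale, Alx4, Twist1 and Hand2 fell under 1.3-fold. Tbx4, a T-box factor of the hindlimb, lay just under 1.3-fold higher in posterior tissue as deposited and at 1.38-fold with the trend removed. Its forelimb counterpart Tbx5 read 7.37 in anterior and 7.20 in posterior tissue, 0.18 toward anterior tissue with a local spread of 0.14. Both genes lay above the floor in both arrays. The mix of forelimb and hindlimb tissue in the 2 pools was not tested. The part of mesenchyme content in the differences of the feedback genes was not tested.

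Genes taken as markers of the axis followed the labels of the arrays. They were listed with earlier results of these data known, so they are not an independent check of the labels. Shh was at least 1.64-fold, Ptch1 2.26-fold, Gli1 1.65-fold and Hoxd13 2.58-fold higher in posterior tissue. Gli3 was 1.47-fold and Asb4 2.01-fold higher in anterior tissue, and Actb, a reference gene, differed by 0.06.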

How the data were processed

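Per the labels' protocols, RNA was prepared with Trizol and a clean-up column, and a Nugen kit was used to amplify it before biotin labelling. The authors deposited log2 values made by RMA at the core gene level with Affymetrix Expression Console, per the labels. Build mm9 is named in the submitters' processing notes, and the version of the software was not given in the sources used here. In its usual form RMA equalises the distributions of arrays, so an overall difference in brightness is removed and low ratios can be compressed. Medians over all 23332 probe sets were 5.44 (anterior) and 5.41 (posterior), and the arrays correlated with r = 0.993 across genes, which are not replicates.

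Names came from the platform annotation, which gave 1 symbol for 14996 probe sets, several for 1019 and none for 7317. Probe sets of a symbol were averaged. Fold changes are differences of log2 values. No p-value is given with 1 array a group. The trend was a lowess fit (fraction 0.3) of the difference on the mean level, and the calculation was tested on simulated data. Python 3.11.15 and statsmodels 0.14.6 were used. The 9 measured genes and the other 12 lists (143 genes in all lists, 122 measured) were chosen with earlier results of these data known. Genes named are all members, all listed genes past 1.3-fold, the detected gene furthest in each direction per list, 7 fixed FGF ligands and receptors, and the 3 genes nearest to Spry2; any other gene was named to complete a list, once its value was known. The alternatives tried were median-centred arrays, a filter to detected genes, removal of the trend, the brightest probe set, inclusion of probe sets with several symbols, an offset of 32 on the linear scale, and thresholds of 1.2-fold and 1.5-fold.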

Additional observations from a re-analysis of the deposited data

How the results depend on the processing

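The count of 1 gene past 1.3-fold toward anterior tissue (Spry2) was unchanged under the 6 alternatives of filter, scaling and summary and at 1.5-fold. The filter could not change this count, because all 9 genes were detected. The brightest probe set altered only Il17rd and Spred2, and probe sets with several symbols only added Etv1. On the values as deposited the count became 4 at 1.2-fold. No gene of the 9 passed toward posterior tissue under any of these 8 alternatives. The median difference, posterior minus anterior, ranged from -0.24 as deposited to -0.19 with the offset of 32, and 9 genes kept the anterior side in each of the 6. With the shared probe set of Etv1 included, 9 of 10 genes lay on the anterior side and the median was -0.23. Of the 51 genes named by rule, without those named to complete a list, 2 fell under 1.3-fold with the trend removed (Dlx5 and Twist1). Of the same 51, 1 passed it (Fgf4). Tbx4, which is outside the 51, passed it as well. The offset of 32, which shrinks differences at low levels, took 10 of the 51 genes under 1.3-fold, Grb2, Fgf23, Alx4 and Hand2 among them. No paired analysis was possible because each group has 1 array, and for the same reason no array could be left out. Signals near the floor limit what Etv4, Spry1 and most FGF ligands can show.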

Other observations

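Some markers of minor cell types lay above the floor in both arrays. Of 7 measured muscle progenitor markers 3 were detected, Pax3 and Met in both arrays and Myod1 in the posterior array alone. Pax7, Lbx1, Myf5 and Myog lay under the floor in both arrays. Summed levels of all 7 on the linear scale were 313 in anterior and 329 in posterior tissue. Myod1 had a posterior excess past 1.3-fold as measured, but of at least 1.03-fold against the floor. None of 9 endothelial markers passed 1.3-fold. Their summed levels were 994 and 978, and Tek and Emcn, 2 vessel genes, lay 0.30 toward anterior and 0.04 toward posterior tissue. Of 6 neural and Schwann cell markers, Dcx had an anterior excess of 1.79-fold and Nefm a posterior excess of 1.47-fold, while 4 of the 6 lay on the posterior side. Their summed levels were 387 in anterior and 319.8 in posterior tissue with Dcx, and 188 and 209 without it, in the opposite order.

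Fgf2, like Etv1, was read only by a probe set that it shares with another gene, Bbs12, and that probe set lay under the floor in both arrays at 4.10 and 4.19.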
